A study of Mus musculus with 8 samples.

Results

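The genes described here encode the enzymes and regulators by which cells make cholesterol and fatty acids, measured in mouse pancreas with and without Sel1L. They were chosen by name, and a gene counted as measured if at least 1 array feature carried its symbol and no other. Of 37 listed genes 36 were measured, 23 of the sterol branch and 13 of the fatty acid branch, out of 18820 genes in all. The 1 without a feature of its own was Acsl3, whose only feature also carried Utp14b. Both groups were mice on the C57BL/6J background, homozygous for a Sel1L gene with loxP sites around exon 6 (Sel1L flox/flox) made from C57BL/6N stem cells. The 4 Sel1L knockout samples (fl/fl;ERCre+) also carried a Cre recombinase fused to the estrogen receptor under an actin promoter, and the 4 wild type samples (fl/fl;ERCre-) were littermates without it. All received tamoxifen at 5 mg/ml, 5 μl per g of body weight, on 3 days in a row at an age of 8 to 20 weeks; the labels give no interval to tissue collection. An actin promoter acts in many tissues and the controls lacked Cre, so effects of Cre, of Sel1L loss in other organs and of Sel1L loss in pancreas cannot be told apart. Whether the numbered samples came from different mice is not in the labels. The p-values therefore measure only the spread between samples, which could be technical.

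Cholesterol is built from acetyl-CoA in the cytosol and endoplasmic reticulum (ER): the mevalonate pathway yields isoprene units, these are joined to squalene, and squalene is closed into lanosterol and trimmed to cholesterol. Fatty acids come from the same acetyl-CoA through malonyl-CoA and palmitate, which ER enzymes then lengthen and desaturate. Both branches are controlled by SREBP transcription factors, which SCAP escorts from the ER for activation and which Insig proteins hold back. Sel1L is the adaptor of the ER ubiquitin ligase Hrd1, and acinar cells, which fill most of the pancreas, hold a large ER for making digestive enzymes.

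The promoters of 6 genes that changed, 3 in each direction, are printed to show the letters searched for motifs tied to this pathway; 1 of them, that of Hmgcs1, held the sterol element. They are the 250 bases before the transcription start in RefSeq's GRCm38.p6 tables, 5′ to 3′ on the gene's strand. Hmgcs1, Mvd and Lss were higher in the knockout arrays, Insig1, Acacb and Elovl5 lower. Capitals mark a sterol element (TCACNCCAC), a CCAAT box (CCAAT), a GC box (GGGCGG) or an E-box (CACGTG), searched on both strands, so that ATTGG is a CCAAT box read from the other strand.
Hmgcs1 (chr13:119690101-119690350, plus strand): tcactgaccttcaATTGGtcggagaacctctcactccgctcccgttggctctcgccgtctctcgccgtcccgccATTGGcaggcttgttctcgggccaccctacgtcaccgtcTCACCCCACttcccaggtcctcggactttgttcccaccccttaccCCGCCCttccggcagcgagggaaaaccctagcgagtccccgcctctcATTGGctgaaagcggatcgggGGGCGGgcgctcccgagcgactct
Mvd (chr8:122443423-122443672, minus strand): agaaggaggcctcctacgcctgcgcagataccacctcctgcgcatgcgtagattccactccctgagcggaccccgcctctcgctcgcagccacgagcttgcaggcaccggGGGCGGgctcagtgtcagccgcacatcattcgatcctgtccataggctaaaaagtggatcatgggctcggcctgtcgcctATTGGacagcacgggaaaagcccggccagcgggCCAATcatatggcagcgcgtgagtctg
Lss (chr10:76531355-76531604, plus strand): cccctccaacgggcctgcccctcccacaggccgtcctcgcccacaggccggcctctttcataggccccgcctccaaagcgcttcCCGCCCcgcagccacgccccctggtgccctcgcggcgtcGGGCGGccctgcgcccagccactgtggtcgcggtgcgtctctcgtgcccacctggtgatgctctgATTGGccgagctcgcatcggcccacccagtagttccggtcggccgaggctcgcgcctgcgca
Insig1 (chr5:28071162-28071411, plus strand): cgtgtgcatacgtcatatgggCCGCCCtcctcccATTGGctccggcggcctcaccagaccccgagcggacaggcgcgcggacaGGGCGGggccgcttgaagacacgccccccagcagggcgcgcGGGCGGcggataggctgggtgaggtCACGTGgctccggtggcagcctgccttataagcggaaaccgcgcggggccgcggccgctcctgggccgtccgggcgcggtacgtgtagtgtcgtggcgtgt
Acacb (chr5:114165268-114165517, plus strand): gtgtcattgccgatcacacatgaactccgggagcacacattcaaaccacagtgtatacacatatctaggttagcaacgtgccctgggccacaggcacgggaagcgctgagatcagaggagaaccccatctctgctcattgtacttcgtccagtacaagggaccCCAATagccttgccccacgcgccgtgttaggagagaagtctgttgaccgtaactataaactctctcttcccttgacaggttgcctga
Elovl5 (chr9:77917115-77917364, plus strand): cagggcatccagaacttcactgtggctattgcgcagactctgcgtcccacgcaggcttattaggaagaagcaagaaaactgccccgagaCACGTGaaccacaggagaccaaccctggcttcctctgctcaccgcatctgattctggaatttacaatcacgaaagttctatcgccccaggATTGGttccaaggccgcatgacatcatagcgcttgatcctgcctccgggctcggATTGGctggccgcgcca

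RefSeq's promoter list held 39 promoters of 30 members, 27 sterol and 12 fatty acid. The sterol element occurred in 1 of the 39, that of Hmgcs1, at 129 to 137 bases before the start, against 1.05% of all 32851 promoters. CCAAT boxes, bound by NF-Y, occurred in 70.4% of the sterol and 50% of the fatty acid promoters, against 33.8% of all. GC boxes, bound by Sp1, occurred in 77.8% and 58.3%, against 32.7% of all. E-boxes, which SREBP-1 can bind as well as the sterol element, occurred in 18.5% and 8.33%, against 6.02%. The list held a promoter for 5 of the 7 genes called higher and 5 of the 7 called lower. All 10 contained a CCAAT box. Among all 30 members with a promoter, called or not, 24 held a CCAAT box and 24 a GC box. A GC box was found in 5 of 5 promoters of genes called higher and in 3 of 5 of genes called lower, those of Idi1, Insig1 and Acss2 but not of Acacb or Elovl5. The motifs were chosen after the changes were known, and a match of letters is not a binding site.

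The 8 arrays gave log2 levels, and every value below is on that scale, in the order of replicates 1 to 4. Sel1l itself was 12.38 ± 0.0105 in wild type and 11.62 ± 0.114 in knockout arrays (SD, n = 4 each), with no overlap (p = 0.0286 by exact two-sided permutation, the lowest value possible with these arrays). Which of its probes lie in exon 6 is not given in the sources used here, so this reading is a limited check of the deletion. Array medians lay between 4.94 and 5.05. Wild type replicate 2 stood apart: its mean over 8 macrophage markers was 6.58 against 8.38 to 9.07 on the other wild type arrays, and over 8 stellate cell and fibroblast markers 7.10 against 8.26 to 8.65. The 5 acinar markers measured of 8 listed averaged 12.76 to 12.93 in wild type and 12.56 to 12.66 in knockout arrays, and Cela1 (-0.56) and Cel (-0.34) of these were called lower. All 5 had differences below 0, and 4 had lower knockout arrays without overlap. Of the 9410 genes above the median level 3159 and 1105 did so. Cpa1, Ctrb1, Cela1 and Cel read 12.98 to 14.10, near the highest value of all features (14.37). Whether so bright a signal understates a change was not tested. In such bulk tissue, fewer cells of a type and less RNA per cell cannot be told apart. Of all genes 28.7% were called different (limma, Benjamini-Hochberg adjusted p under 0.05 over all 18820 genes), 16.1% higher and 12.6% lower in knockout. Among the 9410 genes above the median level, where 31 of the 36 members lay, these shares were 27.9% and 10.8%.

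More genes of the sterol branch were higher than lower in the knockout arrays, and most were not called. Of 23 genes 6 were called higher and 2 lower, which is 26.1% and 8.70%, close to the shares among genes above the median level. The median difference, knockout minus wild type, was 0.06, against -0.04 over all genes. Over genes above the median level, where 18 of the 23 lay, the median difference was 0.13. The rises were all in enzymes: Mvd, Hmgcs1 and Fdft1 before squalene and Lss, Ebp and Cyp51 after it. The falls were in the isomerase gene Idi1 and in Insig1. In the fatty acid branch more were lower than higher: of 13 genes 1 was called higher (7.69%), Scd1, and 5 lower (38.5%), with a median difference of -0.25. Groups did not overlap for 8 of the sterol and 7 of the fatty acid genes. Of all genes 32.2% had groups that did not overlap, as did 4015 of the 9410 genes above the median level.

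**Figure D1:**
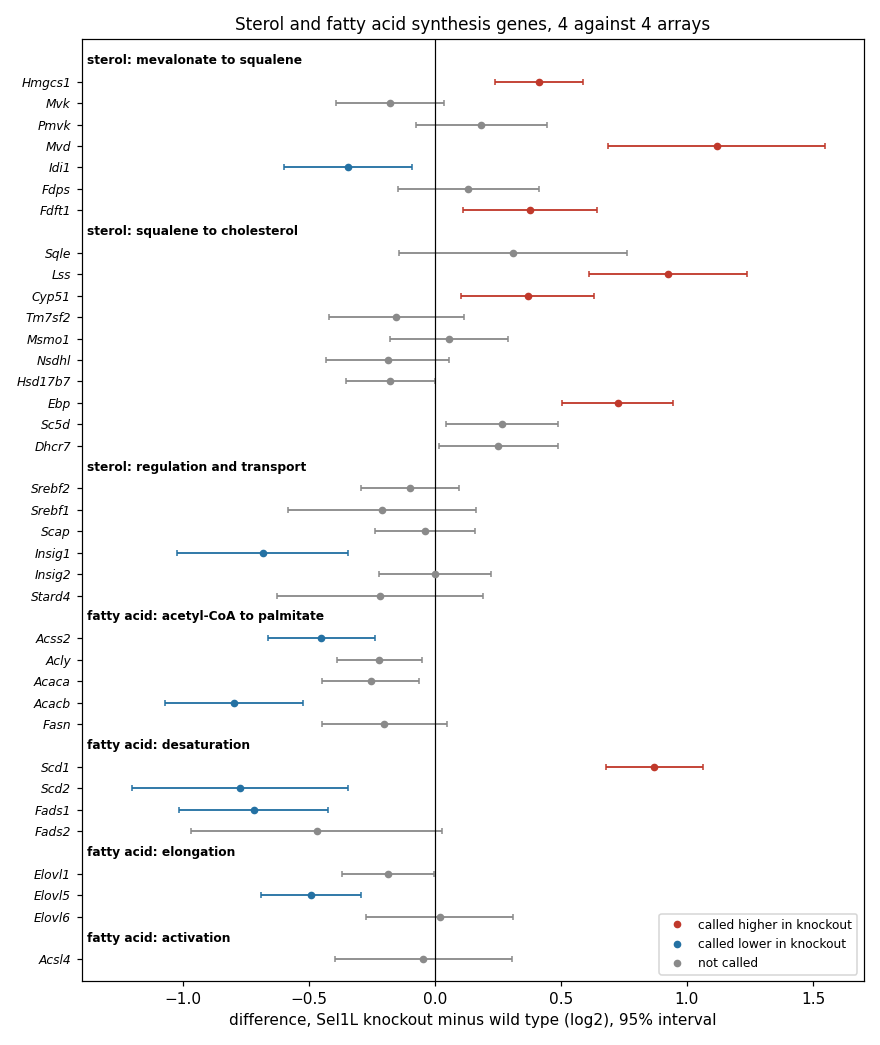
Difference in log2 level, Sel1L knockout minus wild type, of each of the 36 measured genes by step, with the 95% interval of the limma fit (4 arrays per group); red, called higher, blue, called lower, grey, not called. Red points stand in the upper, sterol part at 0.37 to 1.12 and blue points mainly in the lower, fatty acid part, with Scd1 (0.87) as the 1 red point there.

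Of the 7 enzymes that lead from acetyl-CoA to squalene, 3 rose and 1 fell. Among genes above the median level, where 6 of the 7 lay, 27.9% were called higher and 10.8% lower. Mvd, the decarboxylase that turns mevalonate diphosphate into the first isoprene unit, read 5.18, 4.99, 5.64 and 5.75 on the wild type arrays and 6.19, 6.57, 6.40 and 6.86 on the knockout arrays. Every knockout array lay above every wild type array, and Mvd rose by 1.12 (2.17-fold, SE 0.193, adjusted p = 0.00281), the largest difference among the 36 genes. Hmgcs1, the cytosolic HMG-CoA synthase at the head of the pathway, read 6.46, 6.49, 6.37 and 6.34 in wild type and 6.74, 6.76, 6.90 and 6.91 in knockout. Its groups were tight and apart, and it rose by 0.41 (1.33-fold, SE 0.0779, adjusted p = 0.00442). After quantile normalization of the arrays the rise was 0.25 and no longer called (adjusted p = 0.0648).

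Fdft1, squalene synthase, which joins 2 farnesyl units, read 8.99, 9.34, 9.10 and 9.44 in wild type and 9.43, 9.75, 9.53 and 9.68 in knockout. The highest wild type array lay just above the lowest knockout array, and Fdft1 rose by 0.38 (1.3-fold, SE 0.118, adjusted p = 0.0394). Idi1, which interconverts the 2 isoprene diphosphates, read 5.61, 5.85, 5.62 and 6.02 in wild type and 5.48, 5.47, 5.52 and 5.25 in knockout. All knockout values were the lower ones, and Idi1 fell by 0.34 (1.27-fold, SE 0.113, adjusted p = 0.046); a second Idi1 feature differed by -0.23 (adjusted p = 0.0868 over all features). Both calls were narrow. Fdft1 missed the threshold under each of the 3 other scalings (adjusted p = 0.0854 to 0.146) and with any of 5 arrays left out, wild type 1 and 3 and knockout 2, 3 and 4 (0.0697 to 0.103). Idi1 missed it with wild type 2 or 4 or any 1 knockout array left out (0.0724 to 0.116), with the mean of its features (0.0578) and with trend and robust variance (0.0582).

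The kinase genes Mvk and Pmvk and the farnesyl diphosphate synthase gene Fdps did not pass the test. Mvk differed by -0.18 (95% interval -0.39 to 0.04), Pmvk by 0.18 (-0.08 to 0.45) and Fdps by 0.13 (-0.15 to 0.41). Groups overlapped for all 3. Mvd was 2.17-fold higher, while Pmvk, the step before it, had an interval that reached no further than 0.45. Idi1, the step after it, was lower by a narrow call. Pmvk read 4.24 to 4.89, the lowest mean level of the 36 genes, and a change can be understated in so dim a signal. The steps were not tested against each other.

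Of the 10 enzymes from squalene to cholesterol 3 rose, near the 27.9% of genes above the median level, and 7 had differences above 0, as did 6251 of the 9410 genes above that level. Lss, lanosterol synthase, which closes squalene epoxide into the sterol ring, read 6.40, 6.96, 6.54 and 6.95 in wild type and 7.45, 7.69, 7.74 and 7.67 in knockout. The knockout arrays lay close together, all above the wild type arrays, and Lss rose by 0.93 (1.9-fold, SE 0.14, adjusted p = 0.00144). Ebp, the isomerase that shifts the ring's double bond, read 6.54, 6.77, 6.88 and 6.72 in wild type and 7.32, 7.39, 7.50 and 7.60 in knockout. Here too the groups were apart, and Ebp rose by 0.73 (1.65-fold, SE 0.0988, adjusted p = 0.000838). Cyp51, lanosterol demethylase, read 4.91, 5.16, 5.18 and 5.40 in wild type and 5.53, 5.32, 5.67 and 5.61 in knockout. Its groups overlapped at wild type replicate 4, and Cyp51 rose by 0.37 (1.29-fold, SE 0.118, adjusted p = 0.0429). This call was lost in 11 of 16 other settings, among them the 3 other scalings (0.0799 to 0.155), trend and robust variance (0.0536), array weights (0.0685) and leaving out wild type 1, 2 or 3 or knockout 1, 3 or 4 (0.0683 to 0.113).

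Sqle, squalene epoxidase, a rate-controlling enzyme of this stretch, spread widely, at 6.72, 6.88, 6.38 and 7.16 in wild type and 6.69, 7.20, 6.97 and 7.53 in knockout. Its difference of 0.31 did not pass the test (95% interval -0.14 to 0.76, adjusted p = 0.263). Sc5d and Dhcr7, which act at the end of the pathway, had groups that did not overlap but missed the threshold. Sc5d ran from 7.73 to 8.09 in wild type and 8.14 to 8.35 in knockout (difference 0.27, adjusted p = 0.0712), and Dhcr7 from 6.33 to 6.76 and 6.77 to 6.97 (difference 0.25, adjusted p = 0.097). Sc5d was called higher when only genes above the median level were tested (adjusted p = 0.047) and with trend and robust variance (0.0474). Tm7sf2 (-0.15, 95% interval -0.42 to 0.11), Msmo1 (0.06, -0.18 to 0.29), Nsdhl (-0.19, -0.43 to 0.06) and Hsd17b7 (-0.18, adjusted p = 0.117), which remove and reduce groups of the lanosterol ring, were not called. Nsdhl was called lower after quantile normalization (-0.35, adjusted p = 0.0427) and cyclic loess (-0.34, adjusted p = 0.0457), and Hsd17b7 after centring each array on its median (-0.28, adjusted p = 0.0425).

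**Figure D2:**
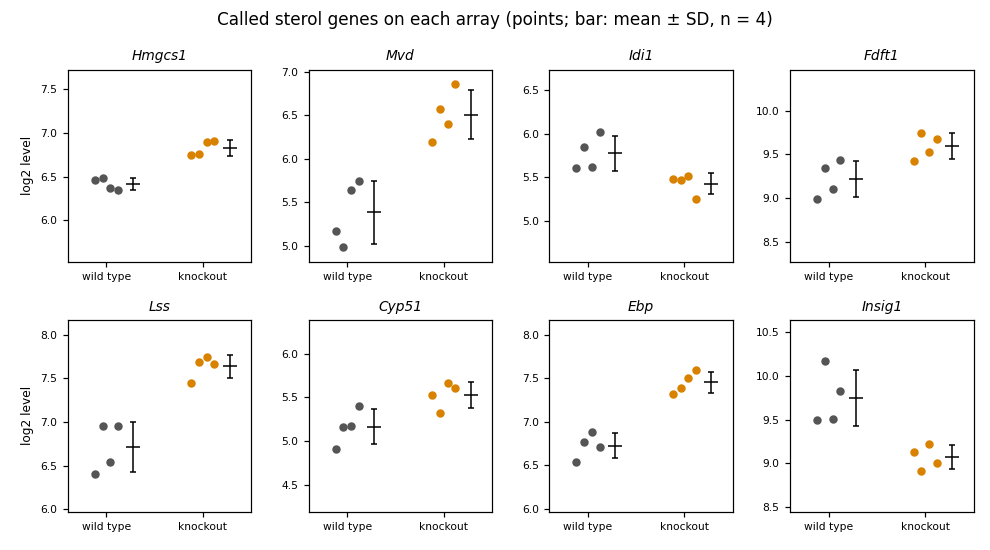
Log2 level of the 8 called sterol genes on each array; points are arrays in the order of replicates 1 to 4, grey for wild type and orange for knockout, bars are mean ± SD (n = 4), and every panel spans the same 2.2 log2 units. Mvd (6.19 to 6.86 in knockout), Lss, Ebp and Hmgcs1 separate upwards, Insig1 and Idi1 downwards, and Fdft1 and Cyp51 touch or overlap.

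Of the 6 genes of regulation and transport 1 was called (16.7%). The share was 28.7% of all genes and 38.6% of those above the median level, where 5 of the 6 lay. Insig1, which keeps SCAP and SREBP in the ER and is itself a classical SREBP target, read 9.49, 10.17, 9.51 and 9.83 in wild type and 9.13, 8.91, 9.22 and 9.01 in knockout. All knockout arrays lay below all wild type arrays, and Insig1 fell by 0.68 (1.6-fold, SE 0.151, adjusted p = 0.0095). Its homologue Insig2 differed by 0.00 (95% interval -0.22 to 0.22), the escort gene Scap by -0.04 (-0.24 to 0.16) and the transcription factor gene Srebf2 by -0.10 (-0.29 to 0.09). Groups overlapped for these 3. Transcript levels do not read the cleavage that activates SREBP proteins.

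Srebf1, the factor gene more tied to fatty acid synthesis, read 7.02, 7.69, 7.75 and 7.78 in wild type and 7.22, 7.55, 7.27 and 7.37 in knockout. Wild type replicate 1 stood below all the others. The difference was -0.21 (adjusted p = 0.361), and with that array left out it was -0.39 and called (adjusted p = 0.0213). Stard4, a carrier of cholesterol between membranes, read 5.22, 5.31, 4.93 and 4.37 in wild type and 4.79, 4.70, 4.66 and 4.81 in knockout. The wild type arrays spread from 4.37 to 5.31 around a narrow knockout range. Its difference was -0.22 (adjusted p = 0.381), and leaving out wild type replicate 4 gave a called fall of 0.42 (adjusted p = 0.0245).

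Wild type replicate 1 held the lowest wild type value for 14 of the 23 sterol genes (60.9%), against 24.8% of all genes. Replicate 4 held the highest for 14 of 23, against 4005 of all 18820 genes. In knockout the SD was smaller than in wild type for 19 of 23 sterol genes (82.6%), against 68.3% of all genes. Without wild type replicate 1 the called sterol genes were 4 higher and 3 lower, with Cyp51 and Fdft1 lost and Srebf1 gained. Without knockout replicate 3 or 4 they were 4 higher and 1 lower, with Cyp51, Fdft1 and Idi1 lost.

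Fatty acid synthesis begins with the supply of acetyl-CoA and ends in palmitate. All 5 genes of this stretch had differences below 0, of which 2 passed the test. Each lay above the median level, where 3159 of 9410 genes had differences below 0 and 10.8% were called lower. Acacb, the mitochondrial acetyl-CoA carboxylase, whose malonyl-CoA restrains fatty acid oxidation, read 7.67, 8.02, 7.77 and 7.77 in wild type and 6.90, 7.30, 6.80 and 7.05 in knockout. The groups were well apart, and Acacb fell by 0.80 (1.74-fold, SE 0.123, adjusted p = 0.00159). Acss2, which makes acetyl-CoA from acetate, read 6.39, 6.33, 6.34 and 6.30 in wild type and 6.02, 6.01, 5.89 and 5.65 in knockout. The wild type arrays agreed closely, all above the knockout arrays, and Acss2 fell by 0.45 (1.37-fold, SE 0.0945, adjusted p = 0.0074).

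Acaca, the cytosolic carboxylase that commits carbon to fatty acids, read 6.36, 6.26, 6.28 and 6.37 in wild type and 6.14, 6.17, 5.88 and 6.06 in knockout. Acly, which makes cytosolic acetyl-CoA from citrate, read 9.04, 8.93, 8.87 and 9.01 and 8.76, 8.78, 8.66 and 8.77. Both had lower, non-overlapping knockout arrays and missed the threshold by little, Acaca with a difference of -0.25 (adjusted p = 0.0515) and Acly with -0.22 (adjusted p = 0.0522). Under each of the 3 other scalings both were called lower (adjusted p = 0.00726 to 0.0164 for Acaca and 0.016 to 0.0237 for Acly). A second, dimmer Acaca feature differed the other way, by 0.20 (adjusted p = 0.303 over all features), and the mean of both features by -0.03. Fasn, fatty acid synthase itself, read 8.13, 8.52, 8.45 and 8.57 in wild type and 8.13, 8.16, 8.21 and 8.37 in knockout. Its groups overlapped at wild type replicate 1, and the difference of -0.20 did not pass (95% interval -0.45 to 0.05, adjusted p = 0.197). Without that array Fasn was called lower (-0.30, adjusted p = 0.0382).

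Of the 4 desaturase genes 1 was called higher and 2 lower. All 4 lay above the median level, where 27.9% of genes were called higher and 10.8% lower. Scd1, a stearoyl-CoA desaturase that puts the first double bond into saturated acyl chains, read 9.31, 9.23, 9.30 and 9.18 in wild type and 10.09, 10.14, 9.97 and 10.29 in knockout. The groups were tight and far apart, and Scd1 rose by 0.87 (1.83-fold, SE 0.0858, adjusted p = 0.000152), the smallest adjusted p of the 36 genes. Scd2, which encodes a desaturase of the same reaction, read 9.89, 10.65, 10.59 and 10.75 in wild type and 9.71, 9.42, 9.67 and 10.00 in knockout. Wild type replicate 1 lay below the highest knockout array, and Scd2 fell by 0.77 (1.71-fold, SE 0.192, adjusted p = 0.0156). The 2 genes lie on 1 chromosome with only Scd4 between them among the protein-coding genes of RefSeq's GRCm38.p6 table. Whether probes of 1 gene also bind RNA of the other was not tested.

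Fads1 and Fads2, direct neighbours in the same table, encode the front-end desaturases that make arachidonic and other polyunsaturated acids. Fads1 read 9.43, 9.98, 9.58 and 9.96 in wild type and 9.07, 9.03, 8.88 and 9.09 in knockout. All knockout arrays were lower, and Fads1 fell by 0.72 (1.64-fold, SE 0.131, adjusted p = 0.00386). Fads2 read 10.13, 9.59, 10.74 and 9.84 in wild type and 9.65, 9.87, 9.34 and 9.57 in knockout. Wild type replicate 3 was the highest array, the groups overlapped, and the difference of -0.47 was not called (95% interval -0.97 to 0.03, adjusted p = 0.139).

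Among the elongases Elovl5, which lengthens polyunsaturated chains made by Fads1 and Fads2, read 8.28, 8.20, 8.50 and 8.26 in wild type and 7.79, 7.72, 7.84 and 7.93 in knockout. The groups were apart, and Elovl5 fell by 0.49 (1.4-fold, SE 0.0891, adjusted p = 0.00371). Elovl1, which makes very long saturated chains, differed by -0.19 (adjusted p = 0.11), with 9.13 to 9.24 in wild type and 8.90 to 9.15 in knockout; it was called lower after median centring (-0.29, adjusted p = 0.0435) and cyclic loess (-0.28, adjusted p = 0.0321). Elovl6, which takes palmitate to stearate, differed by 0.02 (95% interval -0.27 to 0.31), and its sign turned under each of the 3 other scalings. Acsl4, which activates arachidonic acid to its CoA ester, differed by -0.04 (-0.40 to 0.31).

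**Figure D3:**
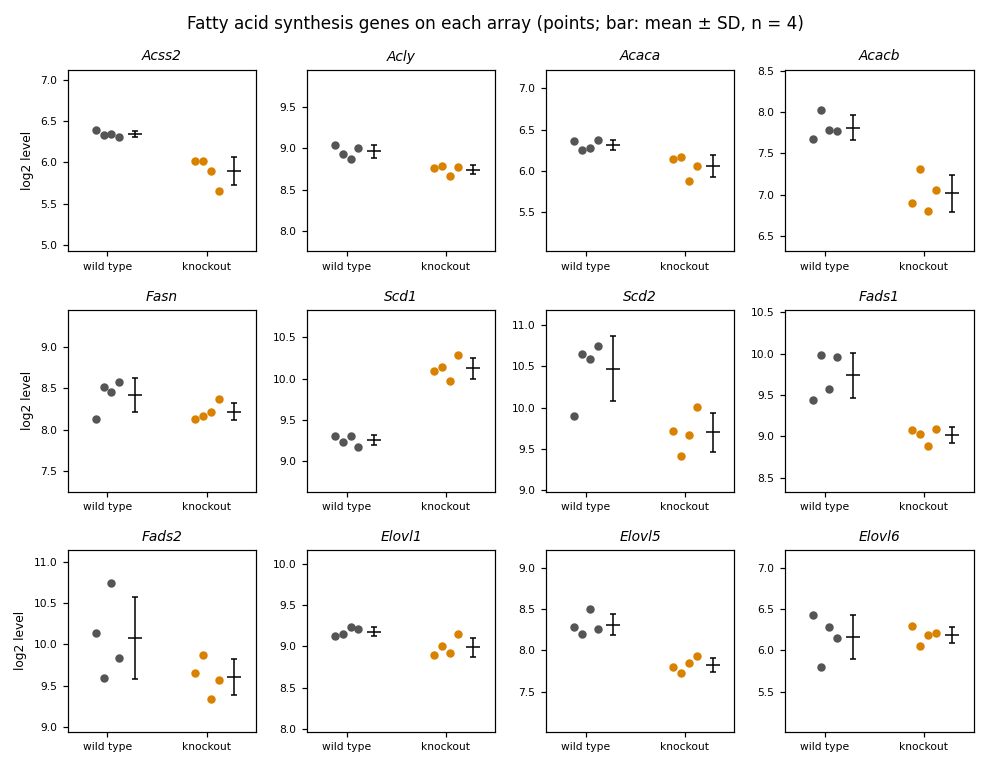
Log2 level of 12 fatty acid synthesis genes on each array; points are arrays in the order of replicates 1 to 4, grey for wild type and orange for knockout, bars are mean ± SD (n = 4), and every panel spans 2.2 log2 units. Scd1 stands higher in knockout (9.97 to 10.29), while Scd2, Fads1, Acacb, Acss2 and Elovl5 stand lower.

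The scaling of the arrays moved the counts of called genes, and no called gene of either branch changed direction under the 3 others tried. Fatty acid genes were called 1 higher and 7 lower after quantile normalization, 1 and 9 after median centring and 1 and 8 after cyclic loess, each time with the 6 genes named above among them. Sterol genes were called 3 higher and 3 lower, 4 and 3, and 4 and 3 under the same scalings, with median differences of -0.10, -0.05 and -0.09 in place of 0.06. Mvd, Lss and Ebp stayed called higher, and Insig1 and Idi1 lower, under all 3. Of the calls over all genes 56.0% were higher as deposited. This share was 49.8% with quantile normalization, 31.8% with median centring and 51.3% with cyclic loess. Median centring moved the median difference of all genes from -0.04 to -0.14.

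**Figure D4:**
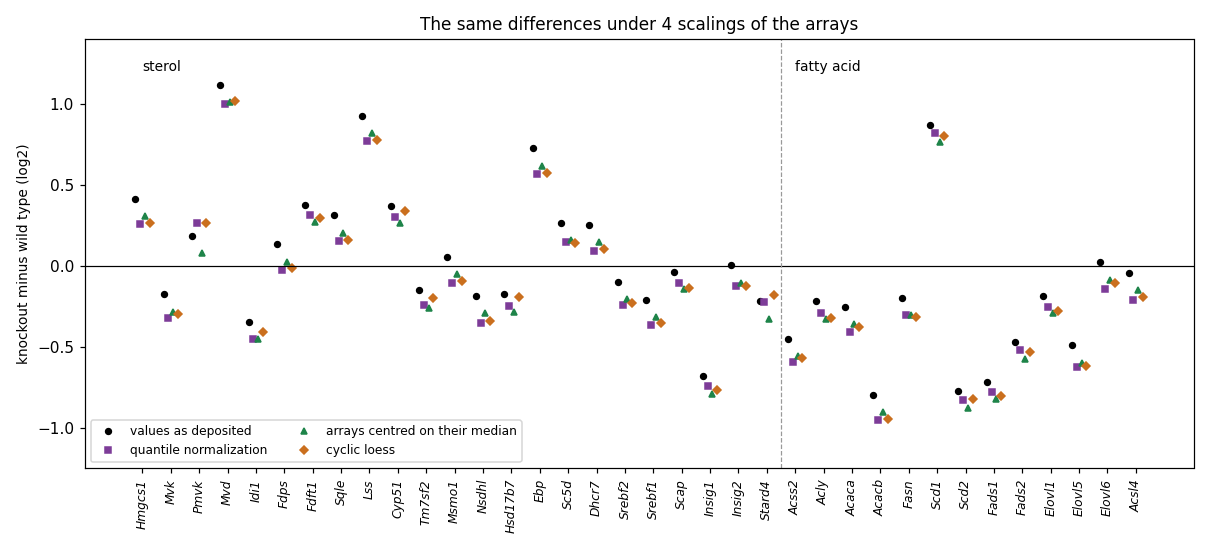
Difference in log2 level, knockout minus wild type, of the 36 genes under the deposited scaling and 3 others; sterol genes left of the dashed line, fatty acid genes right of it. Other scalings move nearly all points down together; Mvd, Lss and Ebp remain at 0.56 or above and the called fatty acid genes stay on their side of 0.

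Genes around the 2 pathways were counted from a separate list. Of 13 measured genes of sterol handling 5 were called higher (38.5%) and 1 lower (7.69%), against 16.1% and 12.6% of all genes and 27.9% and 10.8% of those above the median level, where 12 of the 13 lay. Cyp27a1, which makes the oxysterol 27-hydroxycholesterol, rose by 0.80 (SE 0.174, adjusted p = 0.00831) and Npc1, which exports cholesterol from lysosomes, by 0.72 (SE 0.14, adjusted p = 0.00521). Nr1h3, the gene of the oxysterol sensor LXR alpha, fell by 0.65 (SE 0.0997, adjusted p = 0.00162). The reading of Npc1 was lowest in wild type replicate 2 (7.64, against 7.89 to 8.27 on the other wild type arrays), the array with low macrophage and stellate cell markers.

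Of 24 measured genes of fatty acid supply and glyceride synthesis 5 were called higher (20.8%) and 4 lower (16.7%), near the shares over all genes. Dgat2, which completes triglycerides, fell by 1.28 (SE 0.302, adjusted p = 0.0123), from 6.78, 7.94, 6.18 and 6.96 in wild type to 5.69, 5.80, 5.46 and 5.77 in knockout. Mid1ip1 and Thrsp, related genes whose proteins act on acetyl-CoA carboxylase, went apart. Mid1ip1 read 8.40, 8.72, 8.22 and 8.32 in wild type and 7.36, 7.38, 7.13 and 7.29 in knockout, a fall of 1.12 (SE 0.116, adjusted p = 0.000192). Thrsp rose by 0.91 (SE 0.137, adjusted p = 0.00137), from 4.87 ± 0.114 to 5.79 ± 0.284 (SD, n = 4 each).

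Fat and liver cells also make these lipids, and their markers were read on the same arrays. The defining fat cell markers Adipoq, Plin1, Cidec, Lep and Retn reached at most 4.52 on any array, below the lowest array median over genes (5.35). Aqp7 and Slc2a4 also lay below the array medians. Fabp4 (7.04 to 7.85), Lipe (6.60 to 7.47) and Pparg (6.30 to 6.68) lay above them on every array, Plin4 on the wild type arrays and Car3 on 3 knockout arrays, up to 7.10. The 12 measured markers of 14 averaged 4.69 to 4.89 in wild type and 4.73 to 5.02 in knockout. Of these 12, Lipe was called higher (0.57) and Plin4 lower (-1.15). A second, dimmer Lipe feature differed by 0.05 (limma adjusted p = 0.775 over all features). The 8 hepatocyte markers averaged 3.90 to 4.28 in wild type and 3.77 to 3.94 in knockout, with 1, Alb, called lower (-0.77). Macrophage markers averaged 6.58 to 9.07 in wild type and 7.94 to 8.97 in knockout, and stellate cell and fibroblast markers 7.10 to 8.65 and 7.88 to 8.65, with 0 of 8 called in either list by limma. At an unadjusted p under 0.05 the counts were 4 of 12 fat cell, 2 of 8 hepatocyte, 0 of 8 macrophage, 1 of 8 stellate cell, 3 of 5 acinar and 1 of 5 beta cell markers. The part of the lower acinar markers in the falls described here was not tested.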

How the data were processed

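RNA of 8 mouse pancreas samples was read on whole-transcript arrays, 1 per sample, from 100 ng of RNA each. The authors deposited 1 table of 35556 features on what the values show to be a log2 scale; per the submitters' processing notes it was made with RMA, with version, chip definition and jointly normalized arrays not given in the sources used here. GEO's platform annotation named 1 gene for 21218 features; the others were left out, as was Acsl3. Of several features per gene the one with the highest mean was kept, giving 18820 genes, with no filter on dim ones. Symbols were checked against RefSeq's GRCm38.p6 table through 21185 Entrez matches, and 0 changed.

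Genotype was fitted over all genes with limma 3.58.1 (R 4.3.3; lmFit, eBayes, 6 residual degrees of freedom), and genes with a Benjamini-Hochberg adjusted p under 0.05 were called. Differences are knockout minus wild type, errors moderated standard errors, and intervals 95%. The number of arrays limits the precision, and signals near background understate changes. Sel1l was also tested by exact permutation. The script was tested on simulated data. Every listed gene could be named; of the wider lists the 3 called genes with the largest difference were named, and those under other observations were chosen after their values were seen. Members and lists were chosen with earlier results of these data known. Alternatives were other scalings, features, filters, variance models, array weights, a block for the replicate number, and each array left out in turn. Figures were drawn with matplotlib 3.10.9.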

Additional observations from a re-analysis of the deposited data

Results flagged for a closer look

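In 72 groups of 4 arrays (36 genes, 2 genotypes), 3 held 1 array far from the other 3; chance alone marks about 1 group in 20. Idi1 in knockout replicate 4 read 5.25, against 5.47 to 5.52 on the other knockout arrays; without it the fall of Idi1 was not called (-0.28, adjusted p = 0.116). Srebf1 in wild type replicate 1 read 7.02, against 7.69 to 7.78 on the other wild type arrays; without it Srebf1 was called lower. Acly in knockout replicate 3 read 8.66, against 8.76 to 8.78.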

How the results depend on the processing

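Of the 14 called genes, 10 were called under all alternatives that could be run (17 each), with no change of direction among the 14; the exceptions were Idi1, Fdft1, Cyp51 and Hmgcs1, as given with their values. Cyp51 lies below the median level and was not tested among genes above it. The called sterol genes, 8 on the deposited values, numbered 5 to 8 when 1 array was left out and 6 to 8 otherwise; the called fatty acid genes, 6, numbered 6 to 7 with 1 array left out, 10 after median centring and 6 to 9 otherwise. Over all genes 3721 to 5227 were called with 1 array left out, against 5406. Signs turned only for genes that were not called. After quantile normalization Fdps stood at -0.0258, Msmo1 at -0.104, Insig2 at -0.127 and Elovl6 at -0.143; after cyclic loess at -0.0144, -0.0934, -0.127 and -0.104; after median centring Msmo1 stood at -0.0496, Insig2 at -0.105 and Elovl6 at -0.0863. With array weights Insig2 stood at -0.0148. With 1 array left out at a time, differences ran from -0.0895 to 0.00161 for Scap, -0.0714 to 0.0561 for Insig2, -0.101 to 0.109 for Elovl6 and -0.167 to 0.0754 for Acsl4. The cause was not tested.

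Deviations from the group mean correlated across genes at 0.222, 0.153, -0.273 and -0.0195 for samples with the same replicate number, 1 to 4. For samples with different numbers they correlated at -0.526 to 0.413. With 4 samples per group these values cannot tell whether the numbers pair the samples. With the replicate number as a block, 7 sterol, 6 fatty acid and 4678 genes in all were called, and Idi1 was not (adjusted p = 0.0953).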

Other observations

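The genes named here were singled out after their values were seen. Of 8 further measured genes of the elongation cycle 2 were called, both higher. The share called higher was 16.1% of all genes and 27.9% of those above the median level. Hsd17b12, the ketoacyl reductase, rose by 0.53 (SE 0.127, adjusted p = 0.0131) and the elongase gene Elovl7 by 0.60 (SE 0.153, adjusted p = 0.0169). The other 6 were not called, with differences of 0.65 for Hacd3, -0.09 for Hacd2, -0.24 for Tecr, -0.20 for Elovl2, -0.21 for Elovl3 and -0.22 for Elovl4. Group means of Elovl2, Elovl3 and Elovl4 were only 2.55 to 3.56, below the lowest array median over genes (5.35). A change can be understated in such dim signals. Me1, which supplies NADPH for lipid synthesis, read 5.04, 4.68, 4.99 and 5.06 in wild type and 6.03, 5.82, 5.73 and 5.55 in knockout arrays, a rise of 0.84 (SE 0.124, adjusted p = 0.00127). Slc25a1, which carries citrate out of mitochondria for Acly, fell by 0.33 (SE 0.0754, adjusted p = 0.0104). Acsl5, which activates long-chain acids, rose by 0.56 (SE 0.0928, adjusted p = 0.00222), and Ppard, a fatty acid sensing nuclear receptor, fell by 0.64 (SE 0.0713, adjusted p = 0.000296).

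In sterol handling, Osbp, which exchanges sterols between ER and Golgi, rose by 0.45 (SE 0.0818, adjusted p = 0.00364). Ggps1, which makes geranylgeranyl diphosphate from pathway intermediates, rose by 0.40 (SE 0.094, adjusted p = 0.0119) and Mylip, the ligase gene that LXR induces, by 0.54 (SE 0.179, adjusted p = 0.0466). Mylip read 8.17, 7.23, 7.96 and 7.66 in wild type, lowest in replicate 2, and 8.27, 8.45, 8.24 and 8.23 in knockout. Abca1, an LXR target for cholesterol export, differed by 0.63 and was not called (adjusted p = 0.0611), with wild type replicate 2 the lowest array at 7.60. Plin2, a coat protein of lipid droplets, read 8.96, 6.19, 9.03 and 7.92 in wild type and 8.90, 8.02, 7.61 and 7.74 in knockout, so its spread within wild type exceeded the difference of 0.04 between groups.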
